A study of Ovis aries with 2 samples.

Results

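PDGFA, PDGFC, PDGFRA and PDGFRB are the ligand and receptor genes of platelet-derived growth factor (PDGF) signalling treated here, 4 of the 18161 genes in the deposited table, taken by their gene names in all 14037 cells. They were measured by 10× Genomics single-cell RNA-seq in skin of Hu sheep lambs at 3 days of age, from the side of the body. One group had straight wool and the other curly wool, which the sample labels call waved, and no other treatment, genotype or strain separates them. Skins of 3 lambs per group were pooled, hair follicle and whole-skin suspensions were mixed, and each pool gave 1 library. With a single library on each side, the wool types could not be tested against each other, and a difference between the libraries cannot be told apart from a difference between pools, dissociations or loadings. The intervals below are exact 95% intervals and cover counting error only.

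PDGFs are secreted dimers that bind receptor tyrosine kinases on nearby cells. The A and C chains act mainly through the receptor PDGFRA, whereas the B chain binds both receptors and the D chain mainly PDGFRB. In skin, PDGFRA is known as a receptor of dermal fibroblasts and dermal papilla cells (DPCs), the mesenchymal cells at the base of the follicle, and PDGFRB as a receptor of pericytes and other mural cells that wrap vessels. PDGFA is known from follicle and epidermal epithelium, which faces these cells across the basement membrane.

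The straight library held 6452 cells and 57956122 unique molecular identifiers (UMIs, each standing for 1 captured RNA molecule), and the curly library 7585 cells and 77634565 UMIs, with medians of 7373.5 and 7495 UMIs per cell. Cells were clustered without the 4 genes into 30 clusters, and 22 of these were named from marker genes. The remaining 8, with 24.8% of straight and 29.9% of curly cells, stayed unnamed. A name with "-like" means that the marker list of that cell type had the highest score of the lists that met all naming conditions. A level is the gene's UMIs scaled to 1000000 UMIs of the class (CPM). Levels of different genes are not compared with each other, because the capture of their transcripts may differ. The libraries shared 70 cell barcodes, and leaving out those 140 cells moved no ratio between compartments or libraries outside its interval.

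Between dermal and epithelial cells, both receptors were higher in the dermal and PDGFA in the epithelial ones. Mural-like cells held both PDGFA and PDGFRB. PDGFRA and PDGFRB were concentrated in dermal cells (DPC-like and fibroblast-like). PDGFA was concentrated in keratinocytes, in mural-like cells and in contractile-like cells, which also carried keratins. In the straight library the 1282 dermal cells held 758 UMIs of PDGFRA (95.2 CPM), against 32 UMIs (1.25 CPM) in 2488 epithelial cells. In the curly library these were 185 UMIs (58.4 CPM) in 715 dermal cells and 29 UMIs (0.698 CPM) in 3434 epithelial cells. The log2 ratio of dermal over epithelial level was 6.25 (5.74 to 6.80) in the first and 6.39 (5.82 to 7.01) in the second library. PDGFRB stood at 23.0 CPM in dermal and 0.666 CPM in epithelial cells of the straight library, and at 37.0 CPM (117 UMIs) and 0.0962 CPM (4 UMIs) in the curly library. Its log2 ratios were 5.11 (4.39 to 5.92) and 8.59 (7.19 to 10.49), the second resting on those 4 epithelial UMIs. PDGFA showed the opposite order, with 11.7 CPM in dermal and 53.1 CPM in epithelial cells of the straight library and 10.7 and 45.0 CPM in the curly library. Its log2 ratios were -2.18 (-2.50 to -1.88) and -2.07 (-2.60 to -1.58). PDGFC had only 4 and 5 dermal UMIs, and its ratios were -3.83 (-5.72 to -2.45) and -1.28 (-2.92 to -0.02). The curly ratio was -0.26 (-1.93 to 1.03) without integration of the libraries, and its interval also held 0 above the study's minimum of detected genes and without called doublets. Both receptors were at least 4-fold higher in dermal cells in both libraries, as were 5.04% of the 11494 genes compared. PDGFA was at least 4-fold higher in epithelial cells in both, as were 7.31% of those genes, while PDGFC passed this limit in the straight library only. In the subset of cells above the study's own minimum of detected genes, the curly ratio of PDGFA was -1.01.

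**Figure D1:**
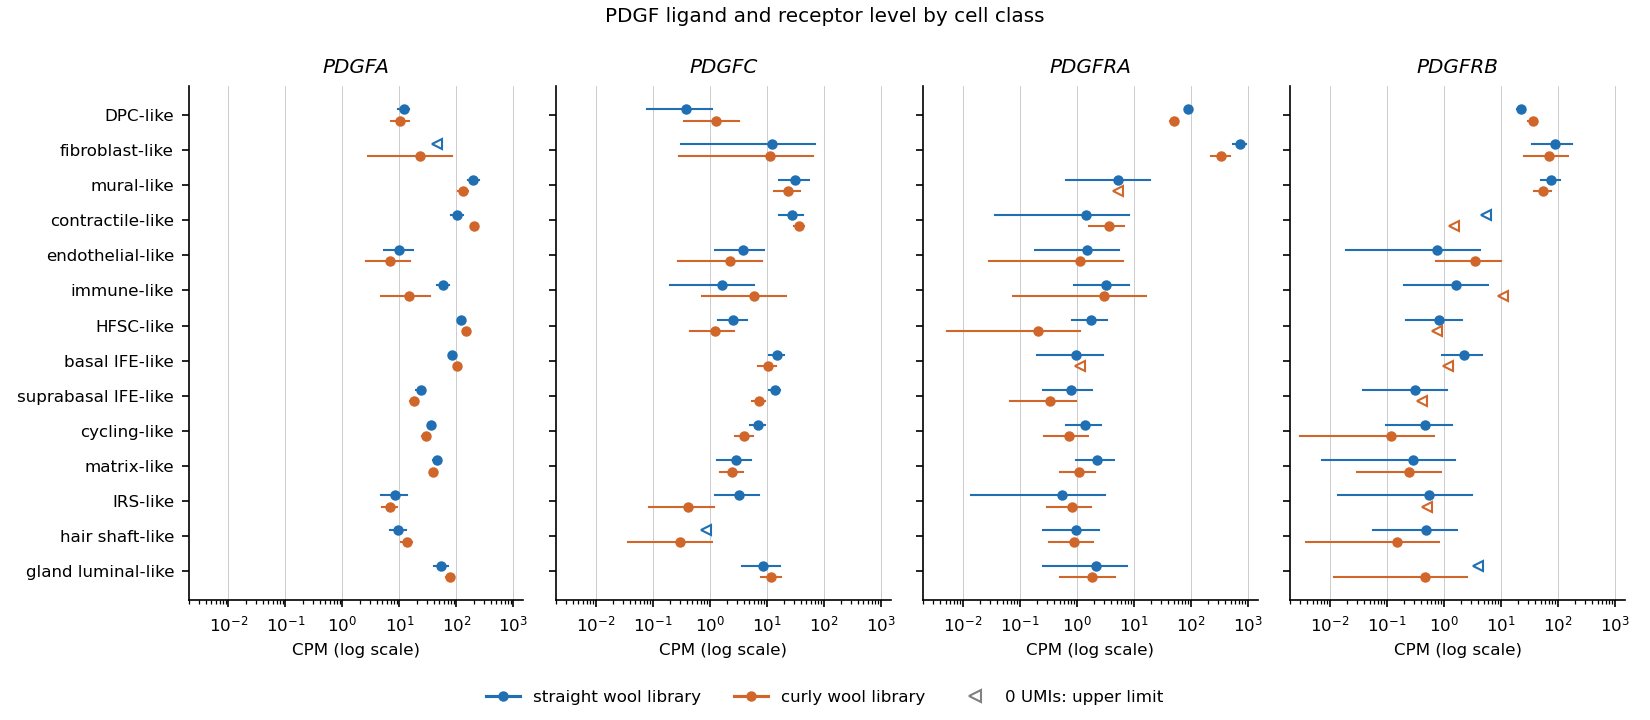
Level of each gene (CPM, log scale) in 14 cell classes of the straight (blue) and curly (orange) library, where points are levels, lines are exact 95% counting intervals, and open triangles mark the upper limit for classes with 0 UMIs. PDGFRA is above 50 CPM only in DPC-like and fibroblast-like cells, and PDGFRB is above 20 CPM only in these and in mural-like cells, whereas PDGFA is spread over many classes.

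PDGFA was the most widely detected of the 4 genes, with 2473 UMIs in the straight and 3184 UMIs in the curly library and a UMI in 24.5% of the straight cells. Among classes with a UMI, its levels ran from 199 CPM in mural-like to 8.36 CPM in inner root sheath (IRS)-like cells of the straight library. In the curly library they ran from 202 CPM in contractile-like to 6.76 CPM in IRS-like cells. Fibroblast-like cells had 0 UMIs in straight and 2 UMIs (23.3 CPM) in curly skin. With only 80140 UMIs of all genes in straight fibroblast-like cells, this 0 does not place them below IRS-like cells. Mural-like cells, led by DES and RGS5, held 199 CPM (157 to 249, 76 UMIs in 84 cells) in straight and 132 CPM (107 to 163, 91 UMIs in 156 cells) in curly skin. Contractile-like cells, led by ACTG2 and ACTA2, held 103 CPM (80.1 to 130, 70 UMIs in 84 cells) and 202 CPM (185 to 220, 502 UMIs in 274 cells). The 2 libraries thus ordered these classes differently: mural-like over contractile-like cells in the straight library, with a log2 ratio of contractile over mural of -0.95 (-1.44 to -0.47), and the reverse in the curly library, with 0.61 (0.28 to 0.95). Contractile-like cells also carried keratins, with KRT5 at 4352 and 4088 CPM, whereas KRT5 was at 467 and 848 CPM in mural-like cells.

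Hair follicle stem cell (HFSC)-like keratinocytes ranked second in both libraries, and they held more of the PDGFA UMIs than any other named class (24.6% of all PDGFA UMIs in straight and 22.9% in curly skin, from 11.3% and 10.4% of the cells). Their level was 122 CPM (113 to 132) in the straight library, against 150.1 CPM (139 to 161) in the curly one, and 51.6% and 54.9% of them had a UMI. Basal cells of the interfollicular epidermis (IFE), the proliferative layer between follicles, held 84.7 CPM (74.8 to 95.6) and 103 CPM (92.2 to 115). Gland luminal-like cells followed with 54.7 and 77.4 CPM. Matrix-like cells, the dividing keratinocytes of the bulb, held 45.5 and 39.3 CPM. Suprabasal IFE-like cells, which have left the basal layer and differentiate, held 23.5 CPM (19.9 to 27.6) and 18.1 CPM (15.4 to 21.1). The terminal layers of the follicle were lowest among the named keratinocyte classes, where hair shaft-like cells held 9.56 and 13.5 CPM and the IRS 8.36 and 6.76 CPM. Among unnamed clusters, the KRT6A-led cluster 10 held 8.95 and 6.98 CPM, and cluster 23, with KLK6 and CDSN among its leading genes, had 0 UMIs in straight and 7 UMIs (3.17 CPM) in curly cells. Of the 13 steps between neighbours in this order of 14 classes, the counting interval of the step left out 0 for only 5 in each library. In the straight library those were mural over HFSC, basal IFE over immune, matrix over cycling, cycling over suprabasal IFE, and suprabasal IFE over DPC-like cells. A small sebaceous-like cluster, left out of the order because it had 20 curly cells, held 114 CPM (69 UMIs) and 85.8 CPM (26 UMIs).

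Within the epithelium, PDGFA was higher in stem and basal clusters than in the clusters that differentiate. In HFSC-like cluster 7, in which LGR5, a marker of the lower bulge and hair germ, stood at 241 and 273 CPM, PDGFA was at 160 and 164 CPM. In HFSC-like cluster 5, with LGR5 at 62.6 and 112 CPM, it was at 113 and 129 CPM, and the log2 ratio of cluster 7 over cluster 5 was 0.50 (0.22 to 0.76) and 0.35 (0.12 to 0.58). Cluster 7 over matrix-like cluster 6 gave 1.81 (1.48 to 2.14) and 2.06 (1.86 to 2.27). Matrix-like cells over their IRS-like cluster 12 gave 2.44 (1.68 to 3.32) and 2.54 (2.10 to 3.00), and over hair shaft-like cluster 9 gave 2.25 (1.74 to 2.79) and 1.54 (1.2 to 1.90). In the epidermis, the basal cluster 4 over the KRT1- and KRT10-led suprabasal cluster 8 gave 1.58 (1.25 to 1.92) and 2.11 (1.78 to 2.45). Dividing cells were split as well. Cycling-like cluster 19, in which KRT5 was at 14478 and 16814 CPM, held PDGFA at 63.2 CPM in the curly library (75 UMIs) and had 147 UMIs in the straight one. Cycling-like cluster 11, with KRT5 at 765 and 832 CPM, held it at 21.3 and 23.1 CPM, and the log2 ratio of 19 over 11 was 1.5 (1.10 to 1.90) and 1.45 (1.04 to 1.85). Among the unnamed clusters, cluster 13, led by PTHLH and with KRT17 among its leading genes, held 101 and 107 CPM.

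In DPC-like cells PDGFA was low, and the interval of the step to endothelial-like cells held 0 in both libraries. DPC-like cells had 93 UMIs (11.8 CPM) in straight and 32 UMIs (10.4 CPM) in curly skin, and 6.31% and 4.22% of the cells had a UMI. Endothelial-like cells stood at 9.96 and 6.94 CPM, with 5.73% and 2.41% of cells at median depths of 5306 and 3827 UMIs, against 6086.5 and 4510 UMIs in DPC-like cells. The log2 step from DPC-like to endothelial-like cells was 0.25 (-0.60 to 1.21) and 0.58 (-0.70 to 2.13). Keratin KRT5 was also counted in the DPC-like clusters, at 788 and 963 CPM in cluster 0 and at 307 and 394 CPM in cluster 3, and the part of RNA from other cells in these PDGFA counts was not tested.

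PDGFC, a ligand whose dimer is activated by proteolysis outside the cell, was sparse, with 324 UMIs in the straight and 359 UMIs in the curly library and a UMI in 4.48% and 4.05% of cells. Like PDGFA, it was highest in mural-like cells of the straight and in contractile-like cells of the curly library. Mural-like cells held 31.5 CPM (16.3 to 54.9, from 12 UMIs) and 23.3 CPM (13.3 to 37.8, 16 UMIs), and contractile-like cells 27.9 CPM (16.8 to 43.6, 19 UMIs) and 37.4 CPM (30.2 to 45.8, 93 UMIs). The pair did not separate in either library, with log2 ratios of contractile over mural of -0.17 (-1.29 to 1.0) and 0.68 (-0.09 to 1.55). In the order of 14 classes, 1 of 13 steps in straight and 0 of 13 in curly cells had an interval that left out 0. The single step was contractile-like over basal IFE-like cells in the straight library, at 0.88 (0.02 to 1.67).

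In the epithelium, most PDGFC UMIs lay in epidermal clusters and few in HFSC-like cells. Its level was not particular to the epidermis. Gland luminal-like cells held 8.58 CPM (8 UMIs) in the straight and 12.05 CPM (26 UMIs) in the curly library. The small sebaceous-like cluster held 14.8 CPM (9 UMIs) and 13.2 CPM (4 UMIs). Basal IFE-like cells held 15.2 CPM (47 UMIs) and 10.4 CPM (33 UMIs), and suprabasal cluster 8 held 22.8 CPM (87 UMIs) and 15.3 CPM (64 UMIs). Basal cluster 4 over cluster 8 gave a log2 ratio of -0.59 (-1.13 to -0.06) in straight and -0.56 (-1.21 to 0.07) in curly cells, the opposite sign to PDGFA. In the later suprabasal cluster 22, with FLG among its leading genes, there were 2 UMIs of PDGFC in straight and 0 in curly cells, and in cluster 20 there were 0 and 1. HFSC-like cells held 13 and 6 UMIs (2.61 and 1.24 CPM), and hair shaft-like cells 0 and 2 UMIs. A count of 0 of 262 hair shaft-like cells allows a share of cells with a UMI of up to 1.15%. The HFSC-like cells, which held the most PDGFA UMIs of the named classes, thus had 150 PDGFA and 1 PDGFC UMI in straight cells of cluster 7 and 479 and 3 in curly cells. Suprabasal cluster 8 had 108 and 87 UMIs in straight and 100 and 64 in curly cells. The KRT5-high cycling cluster 19 held PDGFC at 15.1 and 15.2 CPM, against 1.79 and 2.24 CPM in cycling cluster 11, a log2 ratio of 3.07 (1.89 to 4.48) and 2.76 (1.70 to 3.83).

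**Figure D2:**
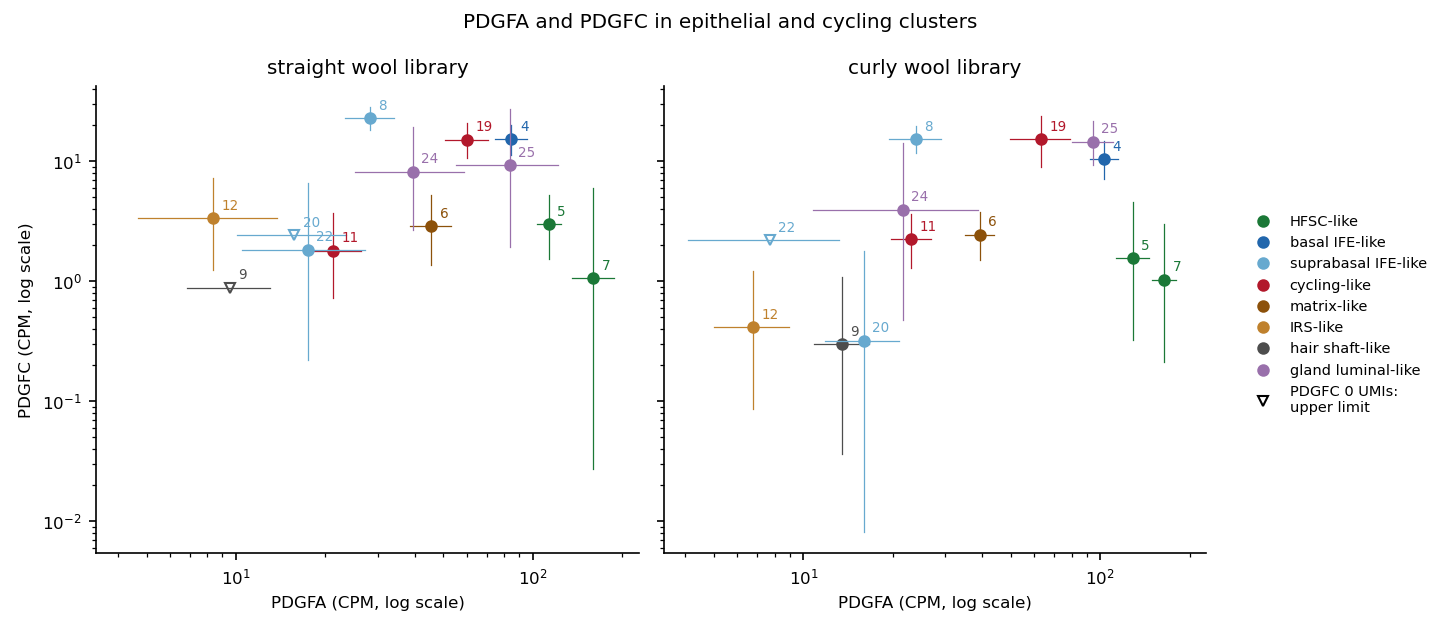
PDGFC level against PDGFA level (CPM, both axes log scale) in the epithelial and cycling clusters of the straight (left) and curly (right) library, with numbers giving the cluster, colours the class, lines exact 95% counting intervals and open triangles the upper limit for PDGFC at 0 UMIs. HFSC-like clusters 5 and 7 lie far right and low in both libraries, with PDGFA above 110 CPM and PDGFC below 3 CPM, while suprabasal cluster 8 lies high and left.

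Both ligands were detected together in the same cell about as often as their separate shares would give in contractile-like cells: 9 cells in the straight library against 8.04, and 63 cells in the curly library against 54.6. In suprabasal IFE-like cells 24 straight cells held both against 15.8, and 19 curly cells against 10.5. This class joins cluster 8 with clusters 20 and 22, which held 3 of its 154 PDGFC UMIs over both libraries.

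PDGFRA, the receptor for the A and C chains, lay mainly in dermal cells by its counts. DPC-like and fibroblast-like cells held 758 of its 825 UMIs in the straight library and 185 of its 240 UMIs in the curly library. Fibroblast-like cluster 26, led by COL1A1, COL1A2 and LUM, was highest, with 736 CPM (560.4 to 950, 59 UMIs in 46 cells) in straight and 339 CPM (227 to 486, 29 UMIs in 52 cells) in curly cells. A UMI was present in 67.4% and 42.3% of these cells, although their median depth was only 899 and 851 UMIs. DPC-like cells held 88.7 CPM (82.3 to 95.5, 699 UMIs in 1236 cells) in straight and 50.6 CPM (43.0 to 59.2, 156 UMIs in 663 cells) in curly skin, with a UMI in 37.7% (35.0 to 40.5) and 18.6% (15.7 to 21.7) of cells. In every other class of the order PDGFRA was at 5.24 CPM or less, and HFSC-like cells had a UMI in 0.956% and 0.127% of cells at median depths of 6470 and 6008.5 UMIs. Among straight cells, the steps from fibroblast-like to DPC-like cells, 3.05 (2.64 to 3.44), and from DPC-like to mural-like cells, 4.08 (2.22 to 7.13), were the only ones of 13 whose interval left out 0. Mural-like cells had 2 UMIs of PDGFRA in straight and 0 in curly skin.

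The DPC-like class joined 2 clusters that differed in PDGFRA. Cluster 3, led by FGF7 and EDN3, secreted factors of the dermal papilla, held PDGFRA at 107 CPM (98.7 to 117) in the straight library, against 80.3 CPM (64.9 to 98.4) in the curly one. Cluster 0, led by SERPINF1 and SOX18, held it at 54.6 CPM (46.3 to 64.0) and 32.8 CPM (25.2 to 41.9). The log2 ratio of cluster 3 over cluster 0 was 0.98 (0.71 to 1.24) and 1.29 (0.82 to 1.78), and 55.0% and 34.9% of cluster 3 had a UMI against 20.1% and 11.9% of cluster 0. Cluster 3 was also deeper, with medians of 8031 and 5767 UMIs against 4175.5 and 3986. At an equal depth of 2000 UMIs per cell the expected shares were 18.9% and 15.3% in cluster 3, after leaving out 7 and 2 shallower cells. In cluster 0 they were 9.74% and 6.37%, after leaving out 47 and 56. LUM, a fibroblast proteoglycan, was at 330.0 and 179 CPM in cluster 0 and at 4.53 and 0.864 CPM in cluster 3. Cluster 0 scored higher for fibroblast markers (3.05) than for DPC markers (2.88), and it took the DPC name because 2 DPC markers but 1 fibroblast marker were among its 10 leading genes. At resolution 0.4 all of its cells were named fibroblast-like, and without called doublets 580 of its 584 straight and 431 of its 442 curly cells were. Without integration 563 of 612 straight cells but 54 of 471 curly cells took that name. Values of the DPC-like class therefore join cluster 3 with a cluster whose name depends on the setting. Fibroblast-like cluster 26 exceeded both in PDGFRA.

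**Figure D3:**
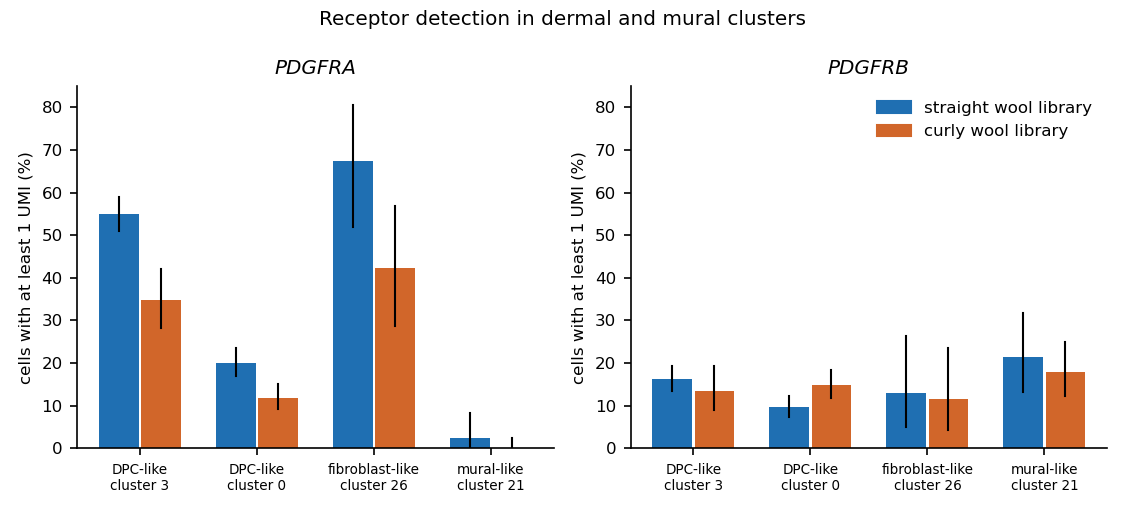
Share of cells with at least 1 UMI (%) of PDGFRA (left) and PDGFRB (right) in DPC-like clusters 3 and 0, fibroblast-like cluster 26 and mural-like cluster 21 of the straight (blue) and curly (orange) library, where bars are shares and black lines exact binomial 95% intervals. PDGFRA ranges from 67.4% of straight fibroblast-like cells to 0 curly mural-like cells, while PDGFRB lies between 9.64% and 21.4% in all bars, and depth differs between the clusters.

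PDGFRB, the receptor for the B and D chains, was shared by mural-like and dermal cells. Mural-like cells held 76.0 CPM (50.9 to 109, 29 UMIs) in straight and 53.8 CPM (37.9 to 74.2, 37 UMIs) in curly skin, with a UMI in 21.4% and 17.9% of cells. DPC-like cells held 22.3 CPM (19.2 to 25.9, 176 UMIs) and 36.0 CPM (29.6 to 43.4, 111 UMIs), with a UMI in 12.9% and 14.5% of cells. Because DPC-like cells were more numerous, they held 71.8% and 68.1% of all PDGFRB UMIs, against 11.8% and 22.7% in mural-like cells. The log2 ratio of mural-like over DPC-like cells was 1.77 (1.15 to 2.34) in straight and 0.58 (0.001 to 1.13) in curly skin. Over DPC-like cluster 3 alone it was 1.76 (1.12 to 2.36) and 1.05 (0.32 to 1.80). PDGFRB stood at 22.4 and 25.9 CPM in cluster 3 and at 22.1 and 42.1 CPM in cluster 0. Fibroblast-like cells ranked highest at 87.3 and 70.0 CPM, but from 7 and 6 UMIs, and their ratio over mural-like cells of 0.20 (-1.23 to 1.42) and 0.38 (-1.16 to 1.64) did not separate them. Contractile-like cells, the other class with smooth muscle genes, had 0 UMIs of PDGFRB in both libraries. By the limit of 3 counts, 0 of 84 and 0 of 274 cells allow shares of up to 3.57% and 1.09%. All remaining classes were at 3.47 CPM or less.

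The receptors thus marked mural-like and contractile-like cells differently. Mural-like cells carried PDGFRB with PDGFA, and 12 straight and 11 curly mural-like cells held UMIs of both in the same cell, against 8.79 and 11.1 from the separate shares. Contractile-like cells carried PDGFA and PDGFC with no PDGFRB and with 1 and 9 UMIs of PDGFRA. In DPC-like cells PDGFRA and PDGFRB were found together in 61 straight cells, against 60.3 from the separate shares, and in 15 curly cells against 17.8. Within cluster 3 alone the counts were 49 against 55.5 and 11 against 9.07, and within cluster 0 they were 12 against 11.9 and 4 against 8.32. Detection of both receptors in a cell was therefore close to what their separate shares give in most of these cells.

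The highest class was the same in both libraries for 2 of the 4 genes, PDGFRA and PDGFRB (fibroblast-like), while PDGFA and PDGFC were highest in mural-like cells of the straight and contractile-like cells of the curly library. The same highest class was found for 44.5% of 9888 genes with at least 500 UMIs.

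The other 3 genes of the PDGF family lay in different cells, PDGFB and PDGFD in endothelial-like, contractile-like and epithelial cells and PDGFRL in dermal cells. Contractile-like cells held 36.8% of PDGFB and 32.0% of PDGFD UMIs in the curly library, against 9.40% and 3.50% in the straight one. They also made up 3.61% of curly but 1.30% of straight cells. The log2 ratio of dermal over epithelial level was -2.15 (-3.31 to -1.18) and -1.55 (-3.84 to 0.04) for PDGFB, and -4.27 (-5.90 to -3.03) and -1.05 (-2.19 to -0.10) for PDGFD. PDGFB, the ligand by which endothelium is known to recruit pericytes, was at 48.2 CPM (63 UMIs) in straight and 24.3 CPM (21 UMIs) in curly endothelial-like cells and at 48.5 and 53.9 CPM in contractile-like cells. In mural-like cells it had 6 and 2 UMIs. PDGFD was at 70.5 and 48.6 CPM in endothelial-like, 32.3 and 79.2 CPM in contractile-like, 28.7 and 19.8 CPM in HFSC-like and 23.3 and 24.9 CPM in basal IFE-like keratinocytes. DPC-like cells held it at 0.635 and 1.95 CPM. PDGFRL, a receptor-like gene without a kinase domain, lay in the same classes as PDGFRA, with 88.0 and 33.1 CPM in DPC-like and 362 and 385 CPM in fibroblast-like cells. Its log2 ratio of dermal over epithelial level was 7.37 (6.61 to 8.25) and 7.33 (6.45 to 8.37). UMIs of PDGFRA and PDGFRL were found together in 210 straight DPC-like cells, against 158 from the separate shares of the class. Within cluster 3 the count was 186 against 174. Among curly cells the counts were 18 against 16.3 in the class and 12 against 12.9 in cluster 3. At the equal depth used above, straight cells gave 24.4 against 22.4 in the class and 19.5 against 20.8 in cluster 3. For curly cells these values were 3.47 against 3.56 and 2.13 against 2.16.

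**Figure D4:**
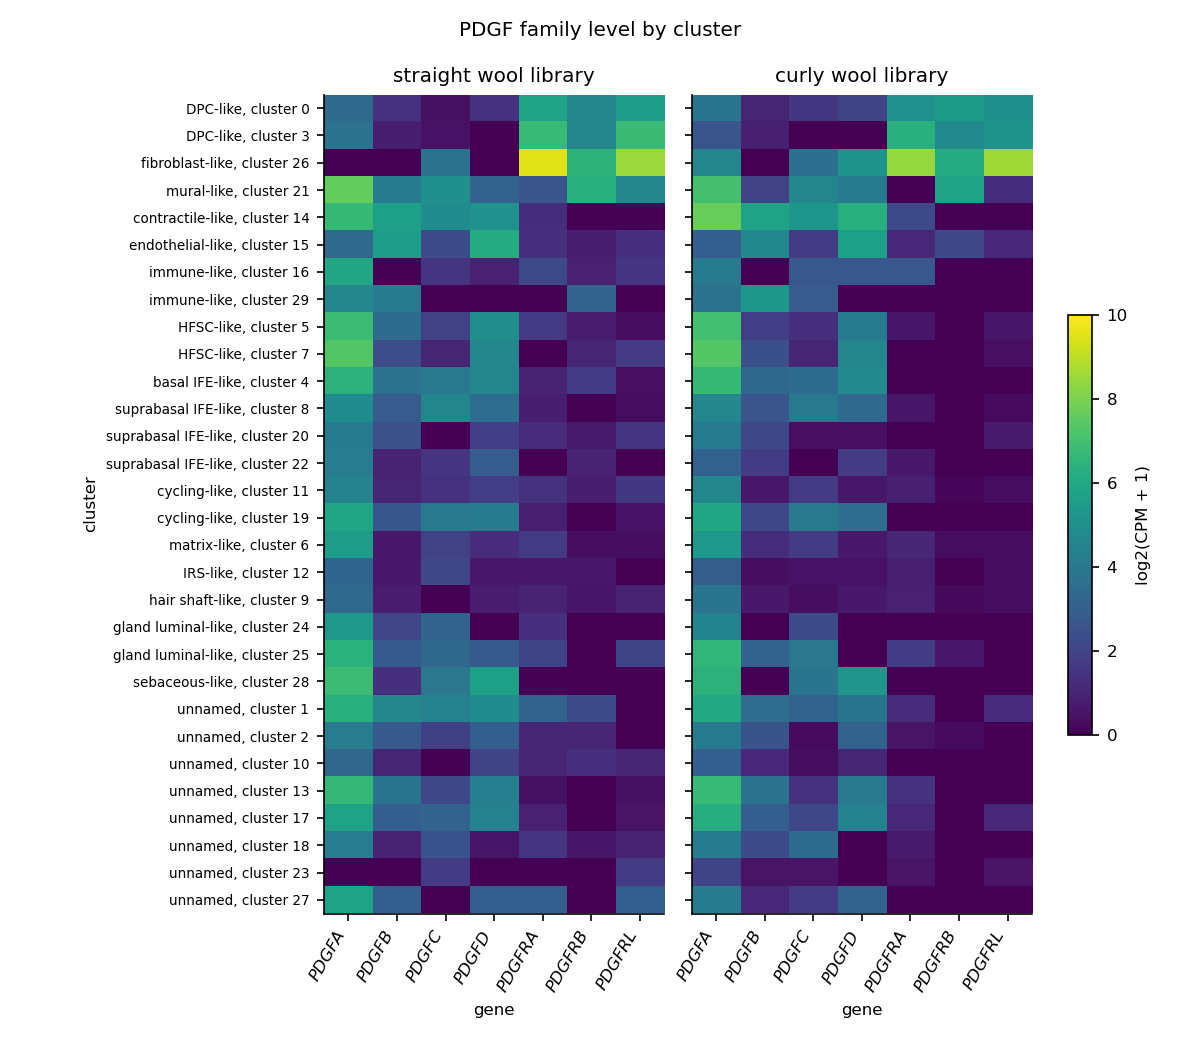
Level of the 7 PDGF family genes, as log2(CPM + 1) in colour, in each of the 30 clusters (rows, with class names) of the straight (left) and curly (right) library. PDGFRA and PDGFRL are bright in DPC-like clusters 0 and 3 and fibroblast-like cluster 26, PDGFRB is bright in these and in mural-like cluster 21, and PDGFA is bright in mural-like, contractile-like, HFSC-like and basal IFE-like clusters.

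Other genes of the pathway were taken from a list of 4 groups. Of 8 measured genes for ligand processing and binding, LRP1, a co-receptor that binds PDGFRB, was at least 4-fold higher in dermal cells in both libraries (log2 2.10 and 2.89). PLAU and ST14, extracellular proteases that can activate PDGF-D, were at least 4-fold higher in epithelial cells (-3.84 and -3.16 for PLAU, -3.52 and -2.39 for ST14). Over all genes these shares were 5.04% in the dermal and 7.31% in the epithelial direction. None of the 17 genes for signalling next to the receptor and none of 4 measured genes for receptor downregulation passed 4-fold in both libraries. The nearest was the adaptor SHC1 at 2.00 and 2.06, the straight value just under the limit. Of the listed genes, PCSK5 and CBLB were not analysed here.

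Between the wool types, the receptors of DPC-like cells differed in opposite directions, with PDGFRA lower and PDGFRB higher in the curly library. In DPC-like cells PDGFRA was at 88.7 CPM (straight) and 50.6 CPM (curly), a log2 ratio of curly over straight of -0.81 (-1.07 to -0.56). PDGFRB was at 22.3 and 36.0 CPM, a ratio of 0.69 (0.33 to 1.04). The median ratio of 9085 genes in this class was -0.06 with an SD over genes of 0.77, so that both values lie near 1 SD from the median of all genes. Neither passed 2-fold, which 9.69% of genes in this class did (6.11% in cluster 0 and 13.8% in cluster 3). The clusters of the class were mixed differently, with 624 cells of cluster 3 and 612 of cluster 0 in straight but 192 and 471 in curly skin. Within cluster 3 the PDGFRA ratio was -0.42 (-0.75 to -0.10) and within cluster 0 it was -0.74 (-1.19 to -0.31), so that it was smaller inside each cluster but kept its sign. For PDGFRB the ratio was 0.21 (-0.42 to 0.80) within cluster 3 and 0.93 (0.43 to 1.43) within cluster 0, where levels were 22.1 CPM (62 UMIs) and 42.1 CPM (81 UMIs). In the same direction as PDGFRA, fibroblast-like cells gave -1.12 (-1.81 to -0.46) from 59 and 29 UMIs, with 18.3% of 432 genes past 2-fold in that small class. Without integration, where most straight but few curly cells of cluster 0 were named fibroblast-like, that ratio was 0.65. DPC-like and fibroblast-like cells pooled gave -0.70 for PDGFRA and 0.68 for PDGFRB, and without integration these were -0.70 and 0.71. As a mean of per-cell CPM, the pooled PDGFRA ratio was -0.42.

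Marker lists of several cell types also differed between the libraries in these cells. Across DPC-like cells the summed level of 7 DPC markers was 9789 and 9684 CPM, but it was 12444 and 8601 CPM in cluster 0 and 8327 and 11484 CPM in cluster 3. The 7 fibroblast markers summed to 2333 and 1779 CPM in the class and the 7 measured basal IFE markers to 1066 and 1682 CPM. Of 20 marker lists, 14 had a higher sum in curly cells of cluster 0 and 13 in those of cluster 3. In cluster 0 the 5 Schwann cell markers summed to 56.8 and 369 CPM, with 2 of them at 0 in straight and 0 of them at 0 in curly cells. The 7 measured mural markers, a list without PDGFRB, summed to 88.6 and 93.1 CPM in that cluster, the 7 contractile markers to 129 and 235 CPM, the 9 endothelial markers to 26.1 and 45.2 CPM and the 5 measured IRS markers to 244 and 711 CPM. The part of these other RNAs in the PDGFRA and PDGFRB ratios was not tested. Over whole libraries PDGFRA stood at 14.2 and 3.09 CPM and PDGFRB at 4.23 and 2.10 CPM, and DPC-like cells made up 19.2% and 8.74% of the cells, and fewer cells of a type and less RNA per cell cannot be told apart in the library values.

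PDGFA differed between the libraries in both directions. It was higher in the curly library in contractile-like cells, at 0.97 (0.61 to 1.36), and slightly so in HFSC-like, at 0.30 (0.14 to 0.46), and basal IFE-like cells, at 0.28 (0.04 to 0.52). Beyond 2-fold lay 12.7% of genes in contractile-like cells, 8.59% in HFSC-like and 5.69% in basal IFE-like cells, and PDGFA was not among them in any of these classes. In HFSC-like cells the clusters were mixed differently, as cluster 5 held 507 of 732 straight cells and cluster 7 held 529 of 788 curly cells. Within them the ratios were 0.18 (-0.04 to 0.41) and 0.04 (-0.23 to 0.31). Contractile-like cells of the 2 libraries also differed in other markers, with 7 DPC markers at 523 and 81.2 CPM in sum, 5 measured HFSC markers at 2123 and 798 CPM and VIM at 808 and 2344 CPM, and their part in the PDGFA ratio was not tested. Lower in the curly library were mural-like cells, at -0.59 (-1.04 to -0.13), where 11.8% of genes passed 2-fold, and suprabasal IFE-like cells, at -0.38 (-0.70 to -0.05). In mural-like cells 7 contractile markers summed to 8913 and 19698 CPM and 7 fibroblast markers to 2705 and 1147 CPM, and their part in the ratio was not tested. Within suprabasal clusters 8 and 20 the ratios were -0.25 (-0.65 to 0.16) and 0.02 (-0.71 to 0.79), and in cluster 22 the ratio was -1.18 (-2.32 to -0.08) from 19 and 13 UMIs. In cycling-like cells, where 6.55% of genes passed 2-fold, the ratio of -0.33 (-0.60 to -0.06) became 0.12 (-0.27 to 0.52) and 0.07 (-0.35 to 0.48) within clusters 11 and 19. In gland luminal-like cells the class ratio was 0.50 (0.04 to 0.98), with 10.8% of genes past 2-fold. Immune-like cells gave -1.98 (-3.65 to -0.69), from 72 and 5 UMIs. This was the single class with PDGFA UMIs in both libraries in which it passed 2-fold, as did 14.5% of genes. Their median depths were 3342 and 1936 UMIs and their 7 measured basal IFE markers summed to 1553 and 6301 CPM, and the part of either in the ratio was not tested. In DPC-like cells the class ratio was -0.18 (-0.81 to 0.41). Within cluster 3 it was -1.30 (-2.80 to -0.10) from 65 and 6 UMIs, past 2-fold, as were 13.8% of genes there. Within cluster 0 it was 0.44 (-0.39 to 1.26). Of 26 clusters with at least 20 PDGFA UMIs, the interval held 0 in 18.

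PDGFC was lower in suprabasal IFE-like cells of the curly library, at 7.22 against 13.8 CPM, a log2 ratio of -0.94 (-1.42 to -0.46), where 10.8% of genes passed 2-fold. Within cluster 8, which held nearly all its UMIs, the ratio was -0.58 (-1.07 to -0.09). The ratio of -0.76 (-1.45 to -0.08) in cycling-like cells was 0.32 (-1.04 to 1.84) and 0.01 (-0.89 to 0.85) within clusters 11 and 19. In basal IFE-like cells it was -0.55 (-1.24 to 0.13) and in contractile-like cells 0.42 (-0.30 to 1.22), both with intervals that held 0. In unnamed cluster 18, led by STC1 and PTGS2, PDGFC had 10 UMIs in straight and 31 in curly cells, at 4.75 and 10.2 CPM.

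**Figure D5:**
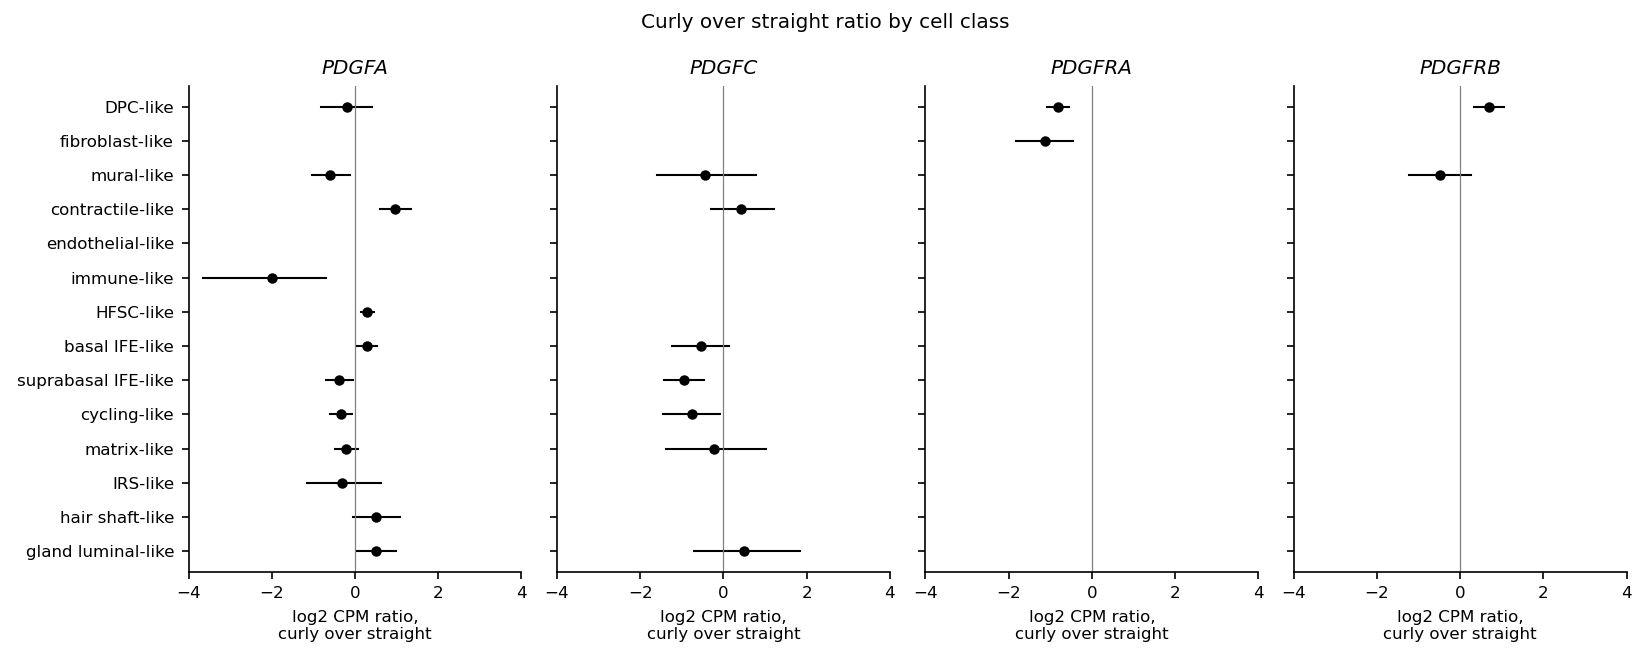
Log2 ratio of the CPM in curly over straight cells for each of the 4 genes by class, with exact 95% counting intervals as lines, shown where a class had at least 20 UMIs over both libraries and some in each. PDGFRA lies left of 0 in both classes shown, PDGFRB lies right of 0 in DPC-like cells and spans 0 in mural-like cells, and PDGFA lies on both sides.

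Of 26 other pathway genes with enough UMIs in DPC-like cells, 3 passed 2-fold, each lower in the curly library. PDGFRL was lower in the curly library, at 88.0 and 33.1 CPM (log2 -1.41). Of 4 genes for receptor downregulation, the phosphatase PTPN1 was at 45.7 and 16.9 CPM (-1.44) and SOCS3, a feedback inhibitor of cytokine signalling, at 146 and 64.3 CPM (-1.18). None of 16 signalling genes and none of 5 genes for processing and binding with enough UMIs passed 2-fold, and the medians of these groups were -0.06 and 0.25. In this class 9.69% of all genes passed 2-fold in either direction, and 6.01% were at least 2-fold lower in the curly library. The class mixed clusters 3 and 0 differently in the libraries. PDGFRL had a UMI in 316 of 624 straight and 37 of 192 curly cells of cluster 3. In cluster 0 these were 102 of 612 and 51 of 471 cells, at depths that were not matched. The part of the mixing in the ratios of PDGFRL, PTPN1 and SOCS3 was not tested. In HFSC-like cells 8.59% of all genes passed 2-fold in either direction, and 5.76% were at least 2-fold lower in the curly library. Of 29 listed genes with enough UMIs there, 5 were at least 2-fold lower. These were PLAT, an activator of PDGF-C (26.9 and 5.15 CPM), PLAU (74.1 and 20.6 CPM), ST14 (15.7 and 7.42 CPM), PDGFB (9.44 and 3.71 CPM) and SOCS3 (log2 -1.01). The class mixed its clusters differently, and within cluster 5 the ratio was -0.03 (-0.23 to 0.17) for SOCS3 and -0.71 (-1.58 to 0.09) for ST14. Within cluster 7 it was 0.06 (-1.63 to 2.14) for PDGFB and -0.36 (-1.16 to 0.49) for PLAU, and PLAT had 0 and 5 UMIs there. The other cluster gave a lower curly level for each gene, with an interval that left out 0. Within cluster 7 the ratio was -1.92 (-2.78 to -1.07) for SOCS3 and -1.71 (-2.70 to -0.73) for ST14. Within cluster 5 it was -2.04 (-3.73 to -0.71) for PDGFB, -1.63 (-2.07 to -1.22) for PLAU and -1.68 (-2.44 to -0.996) for PLAT. In contractile-like cells 5 of 20 listed genes passed 2-fold, against 12.7% of all genes. There PTPN1 at 1.92 (1.28 to 2.64), PDGFD at 1.29, CRK, an adaptor, at 1.24 and SOCS3 at 1.12 (0.68 to 1.59) were higher in the curly library, and PLAU at -1.03 was lower.

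The genes whose levels over clusters were most like those of each member were found by Pearson's r over 28 clusters, on log2(CPM + 5), taking the lower r of the 2 libraries. For PDGFRA these were PDGFRL, LAMA2, a laminin chain, TWIST2, a mesenchymal transcription factor, PRR16 and SERPINF1, with r from 0.91 to 0.97. For PDGFRB they were the collagen VI genes COL6A1, COL6A2 and COL6A3, the homeobox gene PRRX2 and PCOLCE, an enhancer of procollagen processing, with r from 0.94 to 0.97. PDGFA was most like LAMB3, a laminin chain of the epithelial basement membrane, with RTN4IP1, VSNL1, a row that RefSeq names KRT15 and the semaphorin gene SEMA3E next, at r from 0.71 to 0.84. For PDGFC the likest were genes of the contractile apparatus or the actin skeleton (MYLK, PPP1R12A, FLNA, ACTA2) and the calcium pump gene ATP2B1, at lower r of 0.60 to 0.69. Between members, r was 0.82 in straight and 0.77 in curly clusters for PDGFRA with PDGFRB, 0.47 and 0.59 for PDGFA with PDGFC, and -0.39 and -0.21 for PDGFA with PDGFRA. Clusters of a library share its depth and free RNA, so these values are a description only.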

How the data were processed

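Skin cells of straight and curly wool lambs were profiled in 1 pooled 10× Genomics library each. The authors aligned the reads with Cell Ranger (3.0.2 in the submitters' processing notes, another version in the study's methods) to Oar_rambouillet_v1.0, filtered cells in Seurat and deposited natural log values, ln of 1 plus UMIs scaled to 10000 per cell. UMIs were calculated back, and 100% of the 28552149 values above 0 were whole within 0.01 (largest deviation 0.00666). Every cell column belonged to a sample.

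The libraries were integrated in Seurat 5.3.0 (R 4.3.3) by anchors on 2000 variable genes without the 4 members, with 30 dimensions, and clustered at resolution 0.8. Each marker list (119 of 136 entries were in the table) was scored in each cluster by its average log2 ratio over the other cells, 5 CPM added, and the cluster took the best of the lists that met all conditions. These were an average of 1.4, at least 3 markers each found in 10% of cells, and no rival list better represented among the 10 leading genes, and shallow clusters without a leading marker stayed unnamed. These limits, and the minimum of 25 cells of a class per library, were chosen after the data were seen. Doublets were kept, since the Scrublet threshold (scanpy 1.11.5) called 60 straight and 2 curly cells.

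UMIs were summed per class and library and divided by all its UMIs (CPM), with exact Poisson intervals. Shares have Clopper-Pearson intervals, and ratios have intervals from the binomial split of both sums. A count of 0 allows up to 3 counts, which over a whole library is 0.0518 CPM (straight) or 0.0386 CPM (curly). Background shares past a fold limit used genes with at least 50 UMIs in the cells compared, with 0.5 UMIs added to each sum. The same was added in the dermal over epithelial ratios of pathway genes outside the PDGF family. Nothing was added in the curly over straight ratios of single genes. Dermal cells are DPC-like and fibroblast-like, and epithelial cells the keratinocyte classes without cycling cells, glands and sebaceous cells included. The scripts were tested on simulated data (numpy 2.4.6, scipy 1.17.1, pandas 2.3.3, Python 3.11.15, matplotlib 3.10.9).

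Named genes are the members, a list of pathway genes and the 5 genes most like each member, out of those with at least 500 UMIs. FGF7, EDN3, LUM, LGR5, KRT5, VIM and the leading genes of clusters were named after their values were seen. Members and lists were chosen with earlier results of these data known. No sequence is printed, because a genome of the authors' build was not used here, and the RefSeq table of ARS-UI_Ramb_v3.0 served for names only. Alternatives were resolutions of 0.4 and 1.2, no integration, the study's minimum of detected genes, the 842 cells with the highest Scrublet scores (6% of each library) left out, members allowed among the clustering genes and means of per-cell CPM. Leaving out shared barcodes and pooling both dermal classes were added after the data were seen.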

Additional observations from a re-analysis of the deposited data

Results flagged for a closer look

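PDGFA was flagged because its curly over straight ratio pointed in opposite directions in different classes, each with a counting interval that left out 0. The log2 ratio was 0.97 in contractile-like, 0.50 in gland luminal-like, 0.30 in HFSC-like and 0.28 in basal IFE-like cells, and -0.33 in cycling-like, -0.38 in suprabasal IFE-like, -0.59 in mural-like and -1.98 in immune-like cells. With 1 library per wool type the differences between these ratios were not tested. The immune-like value compares 72 UMIs in 301 straight cells with 5 UMIs in 95 curly cells, where the median depths were 3342 and 1936 UMIs. In gland luminal-like cells the ratio was -0.86 (-2.04 to 0.22) within cluster 24 and 0.17 (-0.42 to 0.82) within cluster 25, and 110 of 196 curly cells but 29 of 135 straight cells were in cluster 25.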

How the results depend on the processing

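No paired analysis was possible because each wool type had 1 library. Counting intervals do not cover the spread between lambs, and classes were rebuilt from the data. The 13 planned values and the 2 ratios of pooled dermal cells were recomputed under 8 alternatives, and all alternatives but those named here left every value within its main interval or count limit. The PDGFC dermal over epithelial ratio in curly cells stayed within it but was -0.15 by means of per-cell CPM and had an interval that held 0 without integration (-0.26), without called doublets (-1.85) and above the minimum of detected genes (-2.18). At resolution 0.4 the dermal over epithelial log2 ratio of PDGFRB in straight cells was 6.02. Without integration the curly over straight ratio in fibroblast-like cells was 0.65 for PDGFRA, against -1.12, and 1.56 for PDGFRB, against -0.32 (-2.17 to 1.48), and 0 of the 4 genes had the same highest class in both libraries. The PDGFRB ratio in fibroblast-like cells was also above 0 at resolution 0.4 (0.85), at resolution 1.2 (0.62), above the study's minimum of detected genes (1.15), without called doublets (0.80) and with members allowed (0.54), settings in which cells of cluster 0 joined that class. In cells above the study's minimum of detected genes the dermal over epithelial ratio of PDGFA in curly cells was -1.01. With means of per-cell CPM it was -2.54 in straight and -2.74 in curly cells, that of PDGFRA in curly cells was 7.16, and the curly over straight ratio of PDGFRA in pooled dermal cells was -0.42. Mural-like PDGFA could not be compared above that minimum, since too few cells remained. When members were allowed, 0 of them entered the 2000 clustering genes. That setting used the same genes as the main one, so it cannot show an effect of the members. Names still changed in it, as 139 of 612 straight cells of cluster 0 were named fibroblast-like, against 0 in the main setting. The causes were not tested.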
